A study of Mus musculus with 24 samples.

Results

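Transcript levels were compared between epididymal fat and liver of the same wild-type mice on a high-fat diet (HFD). The comparison rests on 6 of the 24 arrays of the series, taken by genotype, diet and tissue: 1 fat and 1 liver array from each of 3 mice, numbered 546, 547 and 560. Of 18193 genes with a probe set assigned to them alone, 11412 were bright enough to be tested. The remaining arrays came in the same pairs from 3 wild-type (WT) mice on a normal diet (ND), from 3 mice lacking GPR120 on HFD and from 3 lacking it on ND. GPR120, encoded by Ffar4, is a cell-surface receptor for long-chain fatty acids. All 8 groups shared a mixed genetic background of 129/Sv and C57BL/6. The age and sex of the mice, the time on each diet and the way the knockout (KO) allele was made are not given in the sources used here.

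White fat stores triglyceride in large lipid droplets, takes up glucose in response to insulin and releases fatty acids, glycerol and hormones such as leptin and adiponectin. The liver makes most proteins of the blood plasma, releases glucose between meals, turns ammonia into urea, makes bile acids and oxidises fatty acids to ketone bodies. Many metabolic steps that both tissues carry out are catalysed by different members of a gene family, so that a pair of paralogs can mark the tissues as well as a hormone or a plasma protein does.

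Values are signals of Affymetrix Mouse 430 2.0 arrays in linear intensity units, scaled by the authors to a common mean, and the values of the 3 mice are given in the order 546, 547 and 560. The middle 96% of the signals of each array averaged between 100.03 and 100.05. Array medians were 17.1 to 18.8 in fat and 14.8 to 16.8 in liver. Rank correlations over all probe sets were 0.934 to 0.942 among the fat arrays, 0.889 to 0.899 among the liver arrays and 0.772 to 0.785 between the tissues. The 3' over 5' log2 ratio of the Actb control probe sets, a measure of RNA integrity, was 1.13 to 1.68 in fat and 1.99 to 2.09 in liver, whereas that of Gapdh averaged 0.10 ± 0.11 (SD, n = 3) in fat and 0.03 ± 0.04 (SD, n = 3) in liver. The part of RNA integrity in the differences below was not tested. Differences are log2 of fat minus log2 of liver with their standard error, from limma with the mouse as a block, and a gene was called when its adjusted p was under 0.05. A gene whose mean in the dimmer tissue lay below the filter level of 18.7 is given a lower bound, the brighter mean divided by 18.7. A gene at background in 1 tissue was tested only if the other tissue was bright, so counts over a list describe its measured members. The number of arrays limits the precision. Levels of different genes cannot be set against each other on these arrays.

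The tissues differed in most of the transcriptome. Of the genes tested, 7724 (67.7%) were called, 4716 (41.3%) higher in fat and 3008 (26.4%) higher in liver. Fitted differences of 4-fold or more were called for 1696 genes (14.9%) higher in fat and 939 (8.23%) higher in liver. With genes below the filter level in a tissue at their bound, 1304 and 852 of them differed at least 4-fold, 11.4% and 7.47% of all tested genes. In 51.7% of the 1696 genes and 50.7% of the 939 the dimmer tissue averaged below the filter level. The 3 arrays of 1 tissue all lay above the 3 of the other for 8233 genes (72.1%), 5027 with fat above (44.1%) and 3206 with liver above (28.1%), and 317 of the calls (4.10%) had overlapping groups. The median difference over all genes was 0.25 on the log2 scale, so that a gene at 0 lay slightly below the middle of the distribution. It was 0.07 after quantile normalization and 0.05 after centring each array on its median. With these scalings the share of calls that lay in fat was 54.1% (4037 against 3425) and 52.6% (3714 against 3342), compared with 61.1% for the scaling of the authors. Genes with a fitted difference of 4-fold or more toward liver held 31.4% to 32.4% of the summed signal of the liver arrays, and those toward fat held 19.0% to 20.4% in fat.

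Ffar4 itself was a gene of fat. Its signals were 97.3, 126 and 171 in fat and 0.550, 1.19 and 1.63 in liver, so that every fat array lay above every liver array. The receptor transcript was at least 7.04-fold higher in fat (adjusted p = 7.87e-07). In KO mice on HFD the signals were 26.5, 30.5 and 23.1 in fat and 18.3, 13.5 and 15.98 in liver, a difference of 0.75, and the tissue difference was smaller than in WT (adjusted p = 0.00224 for the difference between genotypes). WT mice on ND gave 61.95, 58.3 and 73.7 in fat and 1.07, 17.3 and 2.27 in liver. KO mice on ND gave 34.2, 33.7 and 35.7 in fat and 36.8, 23.1 and 21.5 in liver. The fat arrays of KO mice all read below those of WT mice on the same diet, and their liver arrays all read above those of WT mice. Where the probe set lies relative to the deletion could not be examined here.

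**Figure D1:**
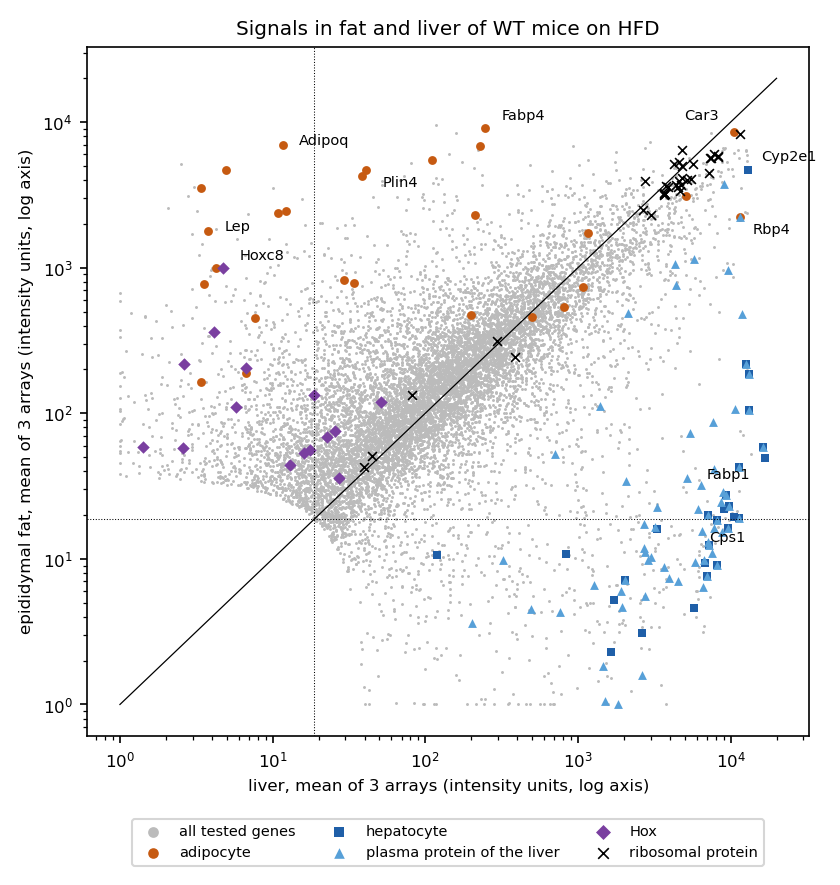
Mean signal of each tested gene over the 3 liver arrays (horizontal axis) and the 3 fat arrays (vertical axis) of WT mice on HFD, in intensity units on log axes, with means under 1 drawn at 1. The diagonal is equality and the dotted lines mark the filter level of 18.7. Most adipocyte genes lie above the diagonal, and 11 of the 27 have a liver mean below the filter level. Most Hox genes lie at the left above the diagonal, with liver means near or below the filter level. Hepatocyte and plasma protein genes lie at the lower right. Ribosomal protein genes lie along the diagonal, where the side a gene falls on changes with the scaling.

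Genes of the fat cell were higher in fat for 20 of 27 measured members of the adipocyte list, higher in liver for 4 and not called for 3, with a median log2 difference of 5.35 against 0.25 for all genes. With the genes that liver did not show above the filter level set to their bound, the median was 4.85. In bulk tissue fewer cells of a type and less RNA per cell cannot be told apart, here and in all that follows. Adiponectin, the most abundant hormone of fat cells, gave signals of 6437, 7003 and 7424 in fat and 6.96, 6.72 and 21.3 in liver. Its gene Adipoq was at least 372-fold higher in fat (adjusted p = 1.26e-07). Resistin, another fat hormone, gave 4698, 4099 and 5271 in fat and 9.47, 2.76 and 2.66 in liver for Retn, at least 251-fold higher in fat (adjusted p = 6.90e-09). Leptin, which reports fat stores to the brain, gave 2398, 1983 and 1009 in fat and 1.93, 7.37 and 1.95 in liver for Lep, at least 96.1-fold higher (adjusted p = 2.26e-06). None of these hormone genes overlapped between the tissues, and the mean of each in liver lay below the filter level.

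The lipid droplet and its supply of fatty acids showed the same split. The droplet coat protein gene Plin4 gave 4576, 4431 and 5032 in fat and 19.9, 70.5 and 32.8 in liver (log2 difference 7.03 ± 0.28, adjusted p = 6.92e-10). Cidec, which fuses droplets into the large ones of white fat, gave 3669, 4364 and 4714 in fat and 52.3, 36.6 and 27.5 in liver (log2 difference 6.82 ± 0.28, adjusted p = 9.51e-10). The fatty acid carrier of fat cells, Fabp4, gave 9073, 8522 and 9798 in fat and 231, 285 and 226 in liver (log2 difference 5.21 ± 0.21, adjusted p = 6.92e-10), and its other probe sets above the filter level gave differences of 5.72 to 7.83. Lipoprotein lipase, which frees fatty acids from circulating triglyceride, gave 6651, 6499.8 and 7261 in fat and 147, 243 and 295 in liver for Lpl (log2 difference 4.95 ± 0.38, adjusted p = 1.79e-07), and another of its probe sets gave 7.69. For both genes the brightest probe set gave a smaller difference than the others. Slc2a4, the insulin-regulated glucose transporter GLUT4, gave 182, 123 and 190.0 in fat and 3.76, 2.54 and 3.94 in liver and was at least 8.81-fold higher in fat (adjusted p = 1.15e-07). Not every member of the list marked fat. Retinol-binding protein Rbp4 was higher in liver, with 1779, 2351 and 2513 in fat and 12269.7, 10624 and 11586 in liver (log2 difference -2.39 ± 0.28, adjusted p = 9.86e-06). Small differences toward liver were called for Pck1, Cebpa and Agpat2 (-0.72, -0.59 and -0.56). Gpd1 and Car3, both abundant in fat, gave -0.04 (adjusted p = 0.887) and -0.29 (adjusted p = 0.428). The mean of the probe sets of Car3 gave 0.90 instead.

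Hepatocyte genes were higher in liver for 27 of 27 measured members, with a median of -8.77, or -8.47 with 14 genes at their bound. Albumin, the main plasma protein, gave 13648, 11765 and 12615 in liver and 142, 434 and 83.5 in fat (log2 difference -6.20 ± 0.43, adjusted p = 7.76e-08). The fibrinogen beta chain gave 11796, 10788 and 11666 in liver and 11.8, 41.5 and 3.71 in fat for Fgb (log2 difference -9.87 ± 0.66, adjusted p = 5.25e-08). Cps1, which commits ammonia to the urea cycle, gave 11163, 9605 and 10942 in liver and 14.5, 33.1 and 10.7 in fat (log2 difference -9.26 ± 0.37, adjusted p = 7.92e-10). No fat array came near a liver array for these genes. Alb and Fgb stood out in the fat of mouse 547, and this mouse had the highest fat signal of the 3 for 20 of the 27 genes. The summed hepatocyte signal was 5007, 5271 and 6642 in fat against 226177, 204178 and 226812 in liver. Where those fat signals came from was not tested. Each of the 6 arrays carried the markers of the tissue on its label. The nuclear receptor Hnf4a, which maintains the hepatocyte state, gave 3129, 2967 and 3862 in liver and 32.6, 13.2 and 2.36 in fat and was at least 178-fold higher in liver (adjusted p = 7.49e-07). Cyp2e1, an ethanol-metabolising cytochrome P450, had the smallest difference of the list, with 13369.7, 12443 and 13285 in liver and 4242, 3599 and 6303 in fat (log2 difference -1.51 ± 0.20, adjusted p = 2.89e-05).

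The genes with the largest called differences between groups that did not overlap, among those above the filter level in both tissues, covered structural and lipid genes on the fat side. After Plin4 and Cidec came the calcium-binding protein S100a6 with 6.67, the TGF-beta signalling inhibitor Pmepa1 with 6.63, the actin-severing protein gelsolin (Gsn) with 6.38 and the fat cell phospholipase Plaat3 with 6.27. Htra3, a secreted serine protease, followed with 6.24, the G protein subunit Gnai1 with 6.15, the matrix protein dermatopontin (Dpt) with 6.09, Ahnak with 6.08, the interferon-induced Ifi27l2a with 6.06 and the collagen chain Col6a2 with 5.96. A further probe set of Gsn gave -0.24 and a further one of Htra3 gave -0.27, so that their probe sets disagreed. S100a6 gave 2188, 2030.4 and 1885 in fat and 23.7, 14.7 and 22.5 in liver, with no overlap. On the liver side stood plasma proteins and enzymes, with fat signals near the filter level. The protease inhibitor Pzp gave 11191, 10340.1 and 11385 in liver and 20.1, 42.0 and 1.91 in fat (log2 difference -9.87 ± 0.62, adjusted p = 3.23e-08). The others were Fgb, Cps1, Fgg (-9.22), the zinc-binding plasma glycoprotein Azgp1 (-9.10), the methyl transferase Gnmt (-9.01) and the liver fatty acid carrier Fabp1 (-8.95). Cyp2d9, Cyp4a14, Tdo2, Hpd and Arg1 gave -8.89 to -8.73. For 9 of these 12 genes, all but Fabp1, Tdo2 and Hpd, the fat mean fell below the filter level without mouse 547, and the differences were then bounds of at least 398-fold (Arg1) to 627-fold (Fgb). Without mouse 546 the same held for Cyp2d9 and Tdo2, and in liver for S100a6 and Col6a2, and without mouse 547 for Pmepa1. The sizes and the order of these differences therefore rest on signals close to background.

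Where liver lay below the filter level, the bounds of genes named for their size were those of the retinol carrier Rbp7 (at least 275-fold), Retn, the cell-cycle regulator Rgcc (191-fold), gamma-synuclein Sncg (188-fold), the secreted resistin-like Retnla (188-fold), the amine oxidase Aoc3 (167-fold) and the membrane protein Emp1 (158-fold). Rbp7 gave 5128, 4859 and 5443 in fat and 3.17, 2.60 and 1.77 in liver (adjusted p = 1.94e-10). Where fat lay below it, the protease inhibitor Mug1 was at least 523-fold higher in liver, plasminogen Plg 517-fold, Cyp2d10 481-fold, the kininogen Kng1 472-fold and the sulfotransferase Sult2a8 443-fold. Ambp (439-fold), the fetuin gene Ahsg (437-fold) and the steroid reductase Akr1c6 (422-fold) were further ones. Each bound divides the mean of the brighter tissue by the filter level, so that bounds of different genes have no order. Mug1 gave 10326, 9042 and 9953 in liver and 14.8, 39.6 and 0.820 in fat (adjusted p = 9.68e-08). The Mug, Cyp2d and Akr1c genes have near-identical copies, so that their probe sets may read more than the named gene.

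**Figure D2:**
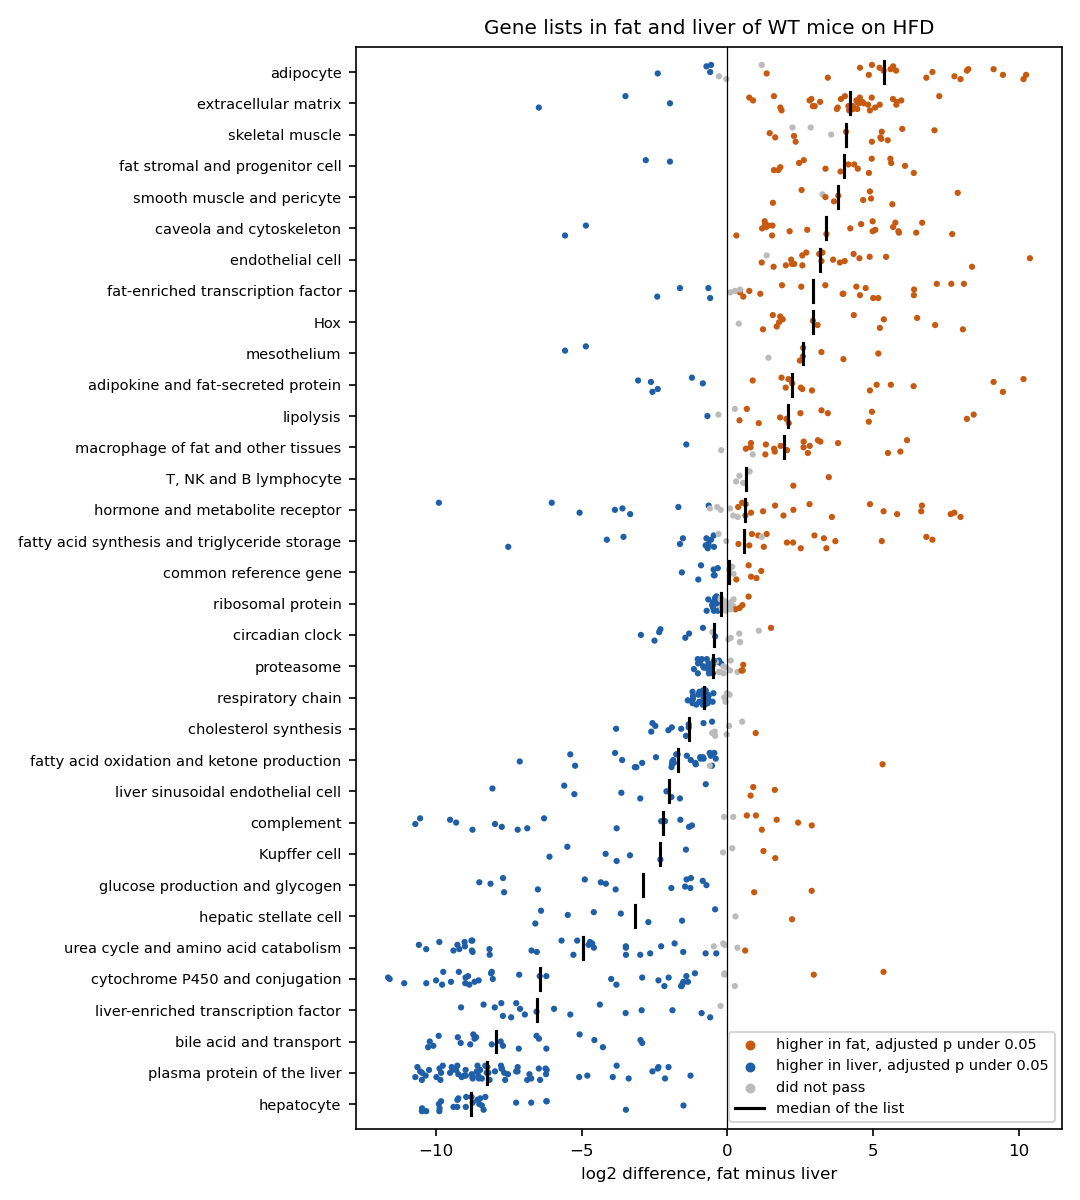
Log2 difference between fat and liver of WT mice on HFD for the tested members of each gene list, 1 point per gene and a bar at the list median, with points to the right of 0 higher in fat. Hepatocyte, plasma protein and bile acid genes lie on the liver side throughout, adipocyte, endothelial and matrix genes mostly on the fat side, and ribosomal, proteasome and reference genes near 0, where the scaling turned the direction of some.

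Secreted proteins divided the tissues further. All 65 measured plasma protein genes of the liver were higher in liver, from -1.27 for haptoglobin (Hp) to bounds such as that of Plg, with a median of -8.25 or, with 35 genes at their bound, -7.20. Hp, a haemoglobin scavenger and acute-phase protein that fat also makes, gave 9513, 8402 and 9357 in liver and 3848, 3762 and 3722 in fat (log2 difference -1.27 ± 0.19, adjusted p = 9.17e-05). Serpinf1, which encodes the anti-angiogenic factor PEDF, gave 4685, 3957 and 4303 in liver and 1029, 1213 and 960.4 in fat (log2 difference -2.02 ± 0.14, adjusted p = 6.43e-08), and Igf1, the growth factor through which growth hormone acts, gave 4497, 3824 and 4876 in liver and 629.7, 632 and 1003 in fat (log2 difference -2.57 ± 0.22, adjusted p = 6.27e-07). These genes had fat signals far above the filter level and still no overlap with liver. Coagulation factors were among the genes below the filter level in fat: F9 was at least 140.2-fold, F12 at least 81.0-fold and F2, prothrombin, at least 389-fold higher in liver. Of 21 genes for proteins that fat secretes, 15 were higher in fat and 6 in liver, with a median of 2.22. Next to the hormones above, the Wnt inhibitor Sfrp5 gave 1455, 1315 and 735 in fat and 26.1, 14.9 and 31.6 in liver (log2 difference 5.6 ± 0.64, adjusted p = 7.12e-06) and the collagen-binding Sparc gave 6633, 6664 and 6129.8 in fat and 209, 259 and 194 in liver (log2 difference 4.88 ± 0.19, adjusted p = 5.05e-10). Angptl4, which inhibits lipoprotein lipase, gave 3619, 3086 and 3848 in fat and 782, 846 and 1023 in liver (log2 difference 1.996 ± 0.16, adjusted p = 3.46e-07). All 3 were higher in every fat array. The members higher in liver were Rbp4, Igf1, angiotensinogen Agt (-2.62), Fgf1 (-3.06), Nampt (-1.22) and the chemoattractant chemerin, Rarres2 (-0.84).

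Complement genes differed in direction. Of 24 measured genes 16 were higher in liver, 6 in fat and 2 were not called. The terminal components that form the membrane pore were liver genes: C8a, C8b, C9 and Hc, which encodes component C5, were at least 358-fold, 98.5-fold, 379-fold and 311-fold higher there. So were the lectin pathway genes Mbl1, Mbl2, Masp1 and Masp2, at least 148-fold, 197-fold, 66.0-fold and 23.0-fold. C1qa, C1qb and C1qc, which code for the recognition unit of the classical pathway and are made mainly by macrophages, were higher in fat. C1qb gave 1106, 1562 and 1293 in fat and 363, 461 and 399 in liver (log2 difference 1.69 ± 0.17, adjusted p = 2.54e-06), with differences of 1.18 for C1qa and 0.66 for C1qc. C1ra and C1s1, the proteases of the same complex, were higher in liver (-2.27 and -1.32). The receptor C3ar1 (2.42) and the membrane-bound complement inhibitors Cd55 (2.89) and Cd59a (0.98) were also higher in fat, whereas the secreted inhibitors Serping1 (-1.61) and Cfi (-7.73) were higher in liver. C2 and the positive regulator Cfp gave -0.12 and 0.20 and were not called (adjusted p = 0.748 and 0.502).

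Transcription factors that define each cell type followed their tissue. Of 19 liver-enriched factors 18 were higher in liver, with a median of -6.54 (-4.32 with 12 genes at their bound). The xenobiotic sensor Nr1i3 (CAR) gave 686, 712 and 663 in liver and 0.450, 0.940 and 1.55 in fat and was at least 36.8-fold higher in liver (adjusted p = 8.76e-09). The bile acid receptor Nr1h4 (FXR) gave 1031, 1219 and 936 in liver and 10.7, 8.53 and 15.9 in fat, at least 56.8-fold (adjusted p = 1e-09), and the pioneer factor Foxa3 gave 469.9, 564 and 481 in liver and 6.04, 0.230 and 10.4 in fat, at least 27.0-fold (adjusted p = 6e-08). None of them overlapped between the tissues. The oxysterol receptor LXR-alpha, Nr1h3, gave 150.2, 153 and 163 in liver and 118, 146 and 133 in fat and was not called (log2 difference -0.24 ± 0.19, adjusted p = 0.29). Of 26 fat-enriched factors 19 were higher in fat, 4 in liver and 3 were not called, with a median of 2.94 (1.40 with 11 at their bound). Pparg, which drives fat cell differentiation, gave 848, 701 and 816 in fat and 27.5, 40.7 and 34.4 in liver (log2 difference 4.54 ± 0.23, adjusted p = 4.12e-09). The early adipogenic factor Ebf1 gave 712, 668 and 763 in fat and 5.21, 0.620 and 3.06 in liver, at least 38.2-fold higher in fat (adjusted p = 2.48e-08), and the preadipocyte factor Zfp423 gave 263, 184 and 129 in fat and 0.860, 0.510 and 1.73 in liver, at least 10.3-fold (adjusted p = 9.58e-07). Every fat array exceeded every liver array for these genes. Klf15, Cebpb, Klf9 and Cebpa, which both tissues use in their response to fasting and hormones, were higher in liver, with differences of -2.41, -1.63, -0.65 and -0.59. Klf3, called higher in fat with 0.43, gave -0.13 as the mean of its probe sets.

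Hox genes, which record position along the body axis, were read above the filter level for 15 of 31 members on the array. Of these 14 were higher in fat and none in liver, with a median of 2.93 (1.65 with 11 genes at their bound). Over all tested genes 41.3% were higher in fat and 26.4% in liver. The 11 genes with a bound were tested only through their brighter tissue, so that their direction is part of that choice. Hoxc8 gave 989, 849 and 1137 in fat and 8.17, 0.450 and 5.54 in liver, at least 53.1-fold higher in fat (adjusted p = 3.95e-07). Hoxd8 gave 443, 274 and 361 in fat and 1.46, 10.3 and 0.740 in liver, at least 19.2-fold (adjusted p = 4.49e-07). Hoxc9 gave 96.1, 43.0 and 66.9 in fat and 38.6, 23.6 and 5.93 in liver (log2 difference 1.89 ± 0.61, adjusted p = 0.0159) and Hoxa5 gave 127, 96.5 and 133 in fat and 56.9, 53.5 and 42.7 in liver (log2 difference 1.22 ± 0.21, adjusted p = 0.000215), both with some signal in liver. Hoxc6 gave 45.9, 21.6 and 40.1 in fat and 31.8, 32.1 and 17.4 in liver and was not called (log2 difference 0.39 ± 0.64, adjusted p = 0.607).

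Promoters were searched for letters bound by factors known in liver or fat: HNF1, whose genes were not among the factors listed here, HNF4 and FOXA, whose genes were higher in liver, and C/EBP. The sequences come from RefSeq for build GRCm38.p6, 300 bases a promoter with 250 before the start, for 27025 gene symbols, 9231 of them tested. The sets compared were genes called with a fitted difference of 4-fold or more toward liver (759 promoters) or fat (1280) and shared genes (3461), all subsets of the tested genes. A core of the HNF1 site, spelled GTTAAT, then any base, then ATT, was held on either strand by 21 of the liver promoters (2.77%), 1 of the fat promoters (0.0781%), 4 of the shared (0.116%), 0.325% of the tested and 0.47% of all. The HNF4 spelling CAAAGTCCA was held by 2.5% of the liver promoters, 0.625% of the fat promoters, 0.433% of the shared, 0.628% of the tested and 0.555% of all. The FOXA spelling TGTTTAC was held by 6.32%, 2.89%, 2.83%, 3.3% and 4.05% in the same order, and TGTTTGC by 7.91%, 4.69%, 4.48%, 4.71% and 5.76%. The palindrome TTGCGCAA, bound by the C/EBP factors that both tissues contain, was held by 0.264%, 0.391%, 0.289%, 0.314% and 0.207%, and its looser form TTGCNNAA, which includes it, by 16.3%, 12%, 8.87%, 10.6% and 12.2%. TATAAA, the TATA box, was held by 16.6%, 13.5%, 7.54%, 9.51% and 15.7%, so that the liver share lay near that of all promoters and above that of tested ones. For the CArG box of smooth muscle genes, only a spelling with every base fixed was searched, so other forms of the box were not counted. It occurred in 4 fat promoters (0.312%), those of Dgkh, Fhl2, Myl6 and Rcn2. None of the liver promoters held it, and it was held by 0.0758% of the tested and 0.0888% of all. The shorter HNF1 spellings AGTTAAT and GTTAAT, which overlap the core, were held by 5.67% and 12.5% of the liver promoters, 2.19% and 5.94% of the fat promoters, 2.17% and 5.72% of the tested and 3.09% and 8.24% of all. Longer full sites of HNF1 (3 spellings), C/EBP (1) and the PPAR and RXR pair (2) were in at most 0.395% of any of these sets. Both strands were searched for all 16 spellings. A match shows that the letters are present and not that a factor binds there.

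The stretches around the matches of 8 genes are shown because these genes are plasma proteins, enzymes, members of families divided between the tissues or, for Lep, the hormone of fat. Capitals mark the match, on either strand, and each stretch lies before the transcription start and is written 5′ to 3′ on the strand of its gene. Of the families described below, G6pc, Igfbp1 and Lpin2 hold the HNF1 core in these stretches. The matches lie 221, 60 and 221 bases before the start in G6pc, Igfbp1 and Lpin2, 138 in Afm, 198 in Cp, 67 in Cyp8b1, 109 in Cyp3a11 and 55 in Lep. In the order shown they are found at chr11:101367466-101367544, plus strand; chr11:7197687-7197776, plus strand; chr17:71204404-71204482, plus strand; chr5:90518771-90518860, plus strand; chr3:19956816-19956905, plus strand; chr9:121916324-121916412, minus strand; chr5:145879915-145880003, minus strand; and chr6:29060126-29060213, plus strand.
G6pc: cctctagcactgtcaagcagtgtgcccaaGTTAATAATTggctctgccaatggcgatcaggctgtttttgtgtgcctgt
Igfbp1: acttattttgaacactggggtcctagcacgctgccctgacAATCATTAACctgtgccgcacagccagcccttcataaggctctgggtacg
Lpin2: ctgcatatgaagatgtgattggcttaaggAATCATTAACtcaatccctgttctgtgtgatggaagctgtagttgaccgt
Afm: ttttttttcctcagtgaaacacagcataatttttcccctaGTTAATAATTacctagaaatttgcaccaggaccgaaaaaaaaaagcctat
Cp: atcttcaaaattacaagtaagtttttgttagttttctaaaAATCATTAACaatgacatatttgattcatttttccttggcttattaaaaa
Cyp8b1: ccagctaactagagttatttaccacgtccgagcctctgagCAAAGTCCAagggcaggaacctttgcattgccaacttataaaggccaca
Cyp3a11: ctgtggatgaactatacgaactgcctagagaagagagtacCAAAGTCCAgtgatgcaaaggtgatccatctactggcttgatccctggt
Lep: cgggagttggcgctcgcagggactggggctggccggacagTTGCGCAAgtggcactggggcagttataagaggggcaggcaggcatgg
These genes were picked from those called in either tissue, so that their direction is part of the choice. G6pc, the phosphatase that releases glucose, was at least 92.5-fold higher in liver, Igfbp1 by at least 145-fold, Cyp8b1 by at least 171-fold and Cyp3a11 by at least 308-fold. Lpin2, a phosphatidate phosphatase, gave -3.56, the vitamin E carrier afamin (Afm) at least 99.9-fold and the copper protein ceruloplasmin (Cp) -3.23. Lep, with the C/EBP palindrome, was higher in fat.

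Receptors for hormones and metabolites had no common direction. Of 33 measured, 19 were higher in fat, 8 in liver and 6 were not called, beside 41.3% and 26.4% of all tested genes. The list median was 0.62 against 0.25 for all genes, and 0.42 against 0.05 after centring each array on its median. Without probe sets that can read several transcripts 27 were tested, of which 18 were higher in fat and 5 in liver. Next to Ffar4, the short-chain fatty acid receptor Ffar2 gave 519, 511 and 683 in fat and 11.1, 0.630 and 14.3 in liver, at least 30.5-fold higher in fat (adjusted p = 8.38e-06). The lactate receptor Hcar1 gave 80.1, 87.4 and 87.5 in fat and 2.88, 0.740 and 0.610 in liver, at least 4.55-fold (adjusted p = 2.83e-05), and the niacin and ketone body receptor Hcar2 gave 86.1, 88.0 and 78.0 in fat and 3.28, 1.84 and 3.79 in liver, at least 4.49-fold (adjusted p = 2.38e-05). All are receptors whose activation restrains lipolysis. The prostaglandin receptor Ptger3 was at least 21.7-fold, the natriuretic peptide clearance receptor Npr3 at least 132-fold and the thyrotropin receptor Tshr at least 10.05-fold higher in fat. In liver the glucagon receptor Gcgr gave 996, 1058 and 1038 against 22.1, 21.5 and 8.35 in fat, at least 55.1-fold higher (adjusted p = 3.63e-06). The asialoglycoprotein receptor subunit Asgr1 was at least 139.6-fold higher and Egfr, the epidermal growth factor receptor, gave -3.86. The insulin receptor Insr gave 821, 819 and 825 in liver and 513, 464 and 613 in fat, slightly higher in liver (log2 difference -0.64 ± 0.15, adjusted p = 0.00237). The growth hormone receptor Ghr gave 0.09 (adjusted p = 0.721).

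Glucose metabolism used different paralogs in each tissue. Glucose production and glycogen genes were higher in liver for 16 of 18 members and in fat for 2, with a median of -2.88 (-2.47 with 5 genes at their bound). Slc2a2, the high-capacity glucose transporter GLUT2, gave 2821, 2863 and 3136 in liver and 17.9, 19.2 and 8.33 in fat and was at least 157-fold higher in liver (adjusted p = 3.90e-10), opposite to Slc2a4. Glycogen synthase was divided between Gys1, with 97.0, 73.5 and 132 in fat and 4.12, 2.68 and 5.85 in liver (at least 5.39-fold, adjusted p = 9.05e-06), and Gys2, with 19.2, 15.9 and 24.1 in fat and 2126, 1861 and 1375 in liver (log2 difference -6.50 ± 0.30, adjusted p = 2.36e-09). These groups did not overlap for either gene. Pyruvate kinase was divided between Pkm (log2 difference 3.01 ± 0.28, adjusted p = 1.01e-06) and Pklr, at least 8.08-fold higher in liver (adjusted p = 5.09e-08). Aldolase was divided between Aldoa (2.34) and Aldoc (at least 7.58-fold higher in liver), lactate dehydrogenase between Ldhb (1.75) and Ldha (-1.83), and glycogen phosphorylase between Pygb (3.72) and Pygl (-1.27). G6pc gave 2362, 1633 and 1191 in liver and 4.82, 8.60 and 2.31 in fat, whereas its widely expressed paralog G6pc3 gave 64.8, 93.4 and 77.9 in fat and 25.02, 30.3 and 23.7 in liver and was higher in fat (log2 difference 1.57 ± 0.31, adjusted p = 0.000662). Of the phosphoenolpyruvate carboxykinases the mitochondrial Pck2 gave 126, 184 and 166 in fat and 21.4, 19.5 and 22.8 in liver (log2 difference 2.89 ± 0.43, adjusted p = 6.88e-05). The cytosolic Pck1, which makes glucose in liver and glycerol phosphate in fat, gave 2164, 3128 and 4014 in fat and 5845, 3508 and 5915 in liver, with overlapping groups and slightly more in liver (log2 difference -0.72 ± 0.26, adjusted p = 0.0249). Fbp1, a gluconeogenic phosphatase, gave -7.66, the ketohexokinase of fructose metabolism Khk -4.89, and the glucokinase regulator Gckr was at least 32.9-fold higher in liver. Hexokinases Hk1 and Hk2 were both higher in fat (1.93 and 3.44), as were Pfkl, Pfkm and Pfkp of the phosphofructokinases (0.65, 0.63 and 3.92).

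Fatty acid carriers and transporters were divided in the same way. Next to Fabp4, Fabp3 of muscle and heart was at least 11.4-fold higher in fat and Fabp5 gave 1.52. Fabp1 gave 17647, 15988 and 16764 in liver and 31.6, 105 and 11.7 in fat (log2 difference -8.95 ± 0.54, adjusted p = 2.22e-08) and Fabp2 was at least 181-fold higher in liver (adjusted p = 1.10e-08). Neither overlapped between the tissues. Among the fatty acid transport proteins Slc27a1 gave 759.7, 680.4 and 1030.4 in fat and 32.1, 16.4 and 30.2 in liver (log2 difference 5.01 ± 0.24, adjusted p = 2.54e-09), while Slc27a2 and Slc27a5, which also activate very long-chain fatty acids and bile acids, were liver genes. Slc27a5 gave 5912, 5105 and 6940.0 in liver and 2.10, 11.2 and 4.81 in fat and was at least 320.1-fold higher there (adjusted p = 8.77e-09). Slc27a4 gave -0.34. The glycerol channels divided into Aqp7 of fat, at least 53.3-fold higher there, and Aqp9 of liver. Aqp7, through which glycerol leaves the fat cell, gave 1163, 899.8 and 926 in fat and 8.06, 4.27 and 0.420 in liver (adjusted p = 1.60e-07). Aqp9, through which it enters the hepatocyte, gave 2264, 2311 and 2923 in liver and 17.4, 25.4 and 16.8 in fat (log2 difference -6.99 ± 0.40, adjusted p = 1.44e-08). Among the droplet proteins of the CIDE family Cidec and Cidea were higher in fat and Cideb, which loads very low-density lipoprotein, was at least 103-fold higher in liver (adjusted p = 7.79e-10). Cidea varied between the mice, with 51.4, 157 and 478 in fat and 6.10, 7.90 and 1.34 in liver (at least 12.2-fold, adjusted p = 0.00075). The peroxisomal transporters divided into Abcd2 (at least 79.3-fold higher in fat) and Abcd3 (-2.94), and the lipins into Lpin1 (1.25) and Lpin2 (-3.56).

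Synthesis and storage of fatty acids were not the property of either tissue: 16 of 32 genes were higher in fat, 13 in liver and 3 were not called, with a median of 0.56. The desaturases Scd1 and Scd2 and the acetyl-CoA carboxylases Acaca and Acacb were all higher in fat. Scd1, which makes oleate, gave 6422, 6894 and 7153 in fat and 509, 1027 and 1231 in liver (log2 difference 2.98 ± 0.35, adjusted p = 9.77e-06) and Scd2 gave 755, 735 and 399.7 in fat and 39.3, 64.8 and 39.8 in liver (log2 difference 3.70 ± 0.22, adjusted p = 2.17e-08). Acaca gave 2.51, Acacb 3.31 and fatty acid synthase Fasn 1.34. The elongases Elovl5 and Elovl6 were higher in liver (-1.53 and -1.63). Dgat1 and Dgat2, which complete triglyceride by separate routes, ran in opposite directions (2.25 and -0.67). Of 16 lipolysis genes 13 were higher in fat, 1 in liver and 2 were not called, with a median of 2.06. Hormone-sensitive lipase gave 825, 819 and 836 in fat and 29.7, 34.9 and 23.0 in liver for Lipe (log2 difference 4.85 ± 0.26, adjusted p = 9.01e-09), and the triglyceride lipase Pnpla2 (ATGL) gave 2009, 2348 and 2566 in fat and 186, 248 and 205 in liver (log2 difference 3.44 ± 0.10, adjusted p = 1.16e-10). Prkar2b, a regulatory subunit of protein kinase A, was at least 124-fold higher in fat. Lipa, the lysosomal lipase, was the member higher in liver (-0.69), and G0s2, an inhibitor of ATGL, gave 3026, 2115 and 2535 in fat and 2926, 5157 and 2044 in liver and was not called (log2 difference -0.31 ± 0.54, adjusted p = 0.632).

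Fatty acid oxidation and ketone production were higher in liver for 29 of 31 genes and in fat for 1, with a median of -1.71. After quantile normalization 23 were higher in liver and 2 in fat, with a median of -1.29. By the mean of probe sets 25 were higher in liver and 1 in fat. The median gap was smaller than for plasma proteins, and 1 of the 31 genes needed a bound. Acadm, which oxidises medium-chain fatty acids, gave 5486, 5289.8 and 6254 in liver and 2860.3, 2591 and 3605 in fat (log2 difference -0.92 ± 0.11, adjusted p = 1.13e-05), and Hadha of the mitochondrial trifunctional protein gave 855, 836 and 857 in liver and 205, 255 and 255 in fat (log2 difference -1.84 ± 0.12, adjusted p = 5.06e-08). The carnitine transferases divided into Cpt1a, the liver form, with 3426, 3036 and 3104 in liver and 405, 389 and 278 in fat (log2 difference -3.17 ± 0.12, adjusted p = 4.32e-10), and Cpt1c, at least 1.70-fold higher in fat. Bdh1, which interconverts the ketone bodies, was at least 118-fold higher in liver, whereas Oxct1, which uses ketone bodies and is lacking in hepatocytes, gave 1585, 1663 and 1712 in fat and 38.7, 41.0 and 44.9 in liver (log2 difference 5.32 ± 0.15, adjusted p = 9.44e-11). Pyruvate dehydrogenase kinase Pdk4 was higher in fat (5.34). Its paralog Pdk1 was called higher in liver (-0.48) but gave 0.04 as the mean of its probe sets.

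Most genes of nitrogen, drug, bile acid and sterol metabolism were higher in liver. Urea cycle and amino acid genes were higher in liver for 33 of 38 members and in fat for 1, with a median of -4.96. Otc, of the urea cycle, was at least 316-fold higher in liver and Hgd, of tyrosine breakdown, at least 266-fold. Arg1, which releases urea, gave 6707, 5680.4 and 8177 in liver and 9.99, 38.3 and 10.6 in fat (log2 difference -8.73 ± 0.53, adjusted p = 2.40e-08). The members not higher in liver all belonged to the breakdown of branched-chain amino acids, which fat also carries out. Hibch was higher in fat (0.61), and Mccc1, Acadsb, Bckdhb and Ivd were not called (0.34, -0.10, -0.14 and -0.47), while Mccc2 and Bckdha of the same route were higher in liver (-0.38 and -0.75). Cytochrome P450 and conjugation genes were higher in liver for 34 of 39 members, with a median of -6.43. Cyp3a11, which clears drugs and bile acids, gave 5106, 4797 and 7357 in liver and 6.43, 3.17 and 4.21 in fat (adjusted p = 4.54e-09). Against this direction Cyp1b1 gave 515, 320.2 and 405 in fat and 11.96, 7.28 and 11.3 in liver, at least 22.1-fold higher in fat (adjusted p = 2.37e-08), and Cyp4b1 gave 1809, 2433 and 1701 in fat and 201, 269 and 296 in liver (log2 difference 2.96 ± 0.25, adjusted p = 4.03e-07). All 22 bile acid and transport genes were higher in liver, with a median of -7.92 (-5.94 with 17 at their bound). The bile acid importer Slc10a1 gave 6032, 5591 and 6665 in liver and 4.03, 6.67 and 5.11 in fat, at least 326-fold higher in liver (adjusted p = 7.33e-10). The rate-limiting Cyp7a1 gave 1213, 508 and 802 in liver and 11.6, 11.8 and 8.94 in fat, at least 45.0-fold (adjusted p = 9.04e-07). Cholesterol synthesis was higher in liver for 12 of 19 genes, in fat for 1 and not called for 6, with a median of -1.33. The summed signal of the list was uneven among the liver arrays, with 13980, 10500.2 and 7270.2 in liver against 5687, 5186 and 5612 in fat. Without mouse 546 only 8 were higher in liver, with a median of -0.67, without mouse 547 likewise 8, with -1.18, and by the mean of probe sets 8, with -0.66. Hmgcs1, which supplies HMG-CoA, was higher in fat (0.97), and Tm7sf2 had the largest difference toward liver (-3.82).

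Most of the listed families with 2 or more tested members were divided between the tissues. Of 64 families listed, 55 had 2 or more tested members, and in 35 of them at least 1 member was higher in fat and another in liver. In 18 the fitted difference reached 4-fold on both sides, and in 17 it did so with genes below the filter level at their bound. The 187 tested members were picked with their tissue roles and earlier results known, so that this share describes the list and not gene families at large. Of all tested genes 41.3% were called higher in fat and 26.4% higher in liver. Groups of several genes taken without regard to family would therefore often be divided too. How often was not computed, so the share is not a result about paralogs. Nuclear receptors of the PPAR family divided into Pparg of fat, Ppara of liver, with 1060.2, 1096 and 842 in liver and 15.01, 23.6 and 37.6 in fat (log2 difference -5.39 ± 0.36, adjusted p = 6.14e-08), and Ppard, with 27.4, 21.6 and 24.3 in fat and 18.1, 12.6 and 18.5 in liver and not called (adjusted p = 0.321). Ppara switches on fatty acid oxidation during fasting. The fibroblast growth factor receptors divided into Fgfr1 (log2 difference 3.58 ± 0.26, adjusted p = 1.19e-07) and Fgfr4, the receptor through which gut-derived FGF15 restrains bile acid synthesis, with 126, 138 and 127 in liver and 15.4, 3.47 and 0.850 in fat, at least 6.96-fold higher in liver (adjusted p = 1.04e-05). Insulin-like growth factor binding proteins Igfbp6, Igfbp5 and Igfbp3 were higher in fat (4.48, 3.49 and 2.75), while Igfbp2 gave 6061, 5315 and 7047 in liver and 34.0, 20.4 and 11.6 in fat (log2 difference -8.25 ± 0.41, adjusted p = 3.80e-09) and Igfbp1 gave 5034, 1692 and 1411 in liver and 20.7, 13.4 and 1.60 in fat (adjusted p = 1.58e-07). The carbonic anhydrases divided into the membrane-bound Car4, at least 35.7-fold higher in fat, and the mitochondrial Car5b, at least 23.3-fold, against Car5a, at least 21.4-fold higher in liver. Car5a and Car5b are both mitochondrial and feed pyruvate carboxylase and, in liver, the urea cycle.

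Cell contacts followed the same pattern. The gap junction gene Gja1 was higher in fat (log2 difference 2.69 ± 0.24, adjusted p = 7.33e-07), and Gjb1, the main connexin of hepatocytes, was at least 32.2-fold higher in liver (adjusted p = 2.98e-09), with 538, 509.7 and 759.8 in liver and 0.740, 0.560 and 1.08 in fat. Of the cadherins Cdh13, a binding partner of adiponectin, and the endothelial Cdh5 were higher in fat (4.40 and 3.26), and Cdh1, of epithelia, and Cdh2 were higher in liver (at least 14.6-fold and -4.16). The retinaldehyde dehydrogenases divided into Aldh1a3 and Aldh1a2 of fat and Aldh1a1 of liver (-2.50), and the adenine nucleotide carriers of mitochondria into Slc25a4, with 2794, 2156 and 2799.7 in fat and 111, 102 and 78.1 in liver (log2 difference 4.74 ± 0.16, adjusted p = 2e-10), and Slc25a5, with 2209, 2120.3 and 2524 in fat and 5436, 5016 and 5471 in liver (log2 difference -1.22 ± 0.10, adjusted p = 3.23e-07). Neither carrier overlapped between the tissues. Families that stayed on 1 side included the insulin receptor substrates Irs1 and Irs2, both higher in fat (0.83 and 1.32), and 4 alcohol dehydrogenases, all higher in liver. Of 5 Ces1 carboxylesterases 4 were higher in liver, and Ces1d gave 3649, 4754 and 6102 in fat and 5157, 5455 and 2218 in liver and was not called (log2 difference 0.25 ± 0.32, adjusted p = 0.498). Members of the Ces1, Gstm and Adh families are close in sequence, and their probe sets may read several genes.

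**Figure D3:**
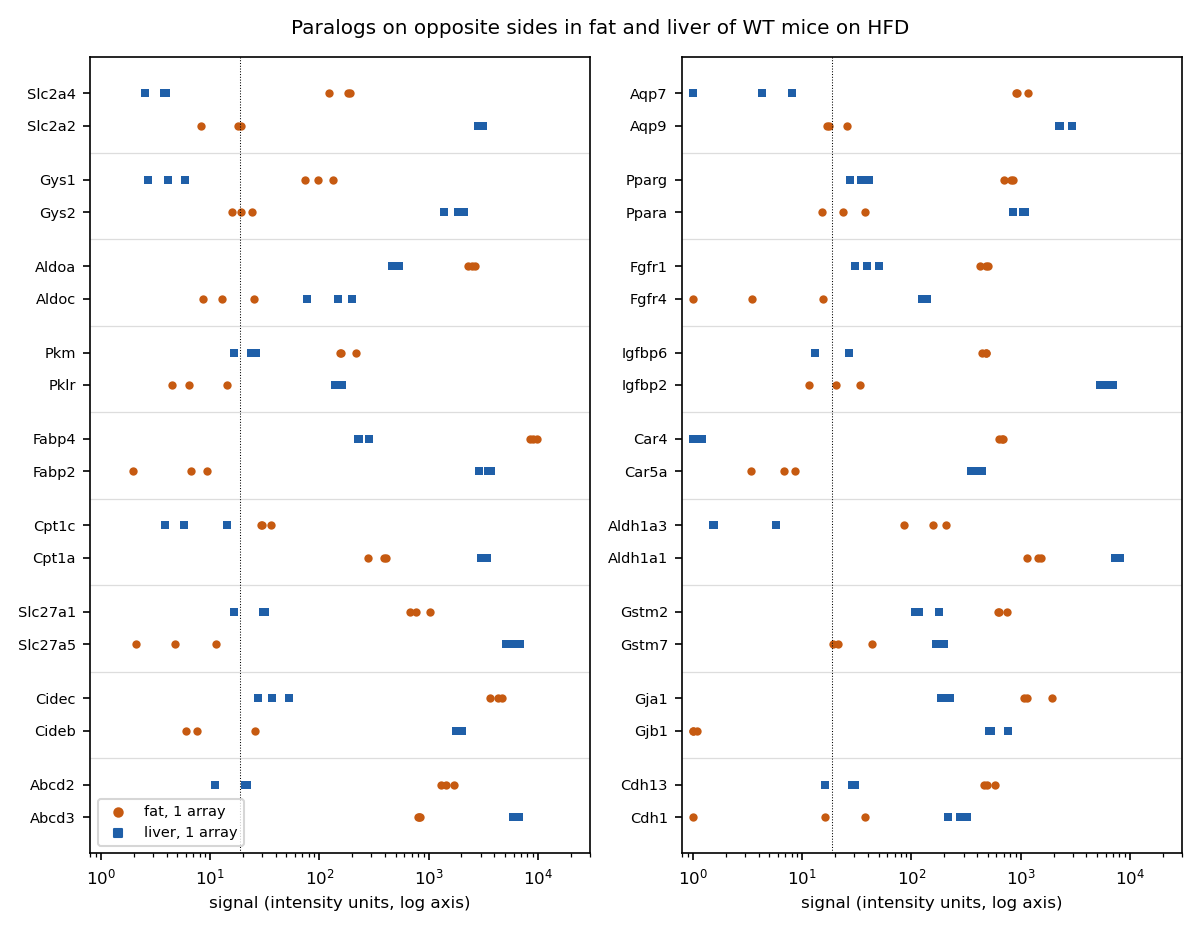
Signals of 18 pairs of paralogs in the 3 fat arrays (circles) and the 3 liver arrays (squares) of WT mice on HFD, 1 mark per array, in intensity units on a log axis with signals under 1 drawn at 1. The dotted line is the filter level of 18.7. Each pair holds the members with the largest difference each way from a family with fitted differences of 4-fold or more on both sides. In each pair the upper gene is higher in fat and the lower in liver, which follows from this choice. No gene shown overlaps between the tissues, and 72.1% of all tested genes do not.

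Vascular, stromal and matrix genes were mostly higher in fat. Of 22 endothelial genes 21 were higher in fat, with a median of 3.18. Pecam1, an adhesion molecule of all endothelium, gave 192, 160.1 and 172 in fat and 3.78, 7.07 and 7.87 in liver, at least 9.35-fold higher in fat (adjusted p = 5.25e-08), and Gpihbp1, which holds lipoprotein lipase on capillaries, gave 3714, 3545 and 3843 in fat and 363, 399.7 and 428 in liver (log2 difference 3.22 ± 0.17, adjusted p = 6.03e-09). The fatty acid translocase Cd36, which fat cells carry as well, gave 6305, 5805 and 6066 in fat and 122, 185 and 121 in liver (log2 difference 5.44 ± 0.17, adjusted p = 1.50e-10). Genes of the sinusoidal endothelium of the liver went the other way in 9 of 12 cases, with a median of -2.01. Stab2, a scavenger receptor for hyaluronan, gave 417, 371 and 375 in liver and 27.2, 39.7 and 28.0 in fat (log2 difference -3.64 ± 0.17, adjusted p = 2.54e-09), and the lectin Clec4g gave 1053, 1059 and 961 in liver and 4.12, 8.17 and 1.69 in fat, at least 54.8-fold higher in liver (adjusted p = 1.72e-07). Lyve1, Mrc1 and Stab1, which macrophages and lymphatic vessels share with the sinusoid, were the 3 higher in fat (1.62, 0.79 and 0.88). Stellate cell genes were higher in liver for 8 of 10, in fat for Des, which muscle cells also express (2.21), and not called for Pth1r, with a median of -3.18 (-1.90 with 5 genes at their bound). Lrat, which stores retinol as esters, gave 135, 132 and 83.6 in liver and 0.160, 2.14 and 0.240 in fat, at least 6.27-fold higher in liver (adjusted p = 3.73e-08). Stromal and progenitor genes of fat were higher in fat for 16 of 18, with a median of 4.01. Smooth muscle and pericyte genes were higher in fat for 10 of 11, with Acta2 at 3549, 2977 and 2724 in fat and 100.1, 46.6 and 48.6 in liver (log2 difference 5.65 ± 0.20, adjusted p = 3.21e-10).

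Extracellular matrix genes were higher in fat for 36 of 39 members and in liver for 3, with a median of 4.20. Col3a1 gave 3440.0, 4298 and 3471 in fat and 126, 109.5 and 128 in liver (log2 difference 4.94 ± 0.25, adjusted p = 4.04e-09) and the basement membrane collagen Col4a1, which surrounds each fat cell, gave 2888, 3159 and 2506 in fat and 113, 108 and 114 in liver (log2 difference 4.67 ± 0.20, adjusted p = 1.25e-09). The collagen cross-linker Lox was at least 31.2-fold higher in fat. The exceptions were matrix proteins that hepatocytes secrete into plasma or the sinusoid: Fn1, fibronectin, with 5677, 5507 and 6141 in liver and 1198, 2507 and 1064 in fat (log2 difference -1.97 ± 0.22, adjusted p = 4.88e-06), vitronectin Vtn (-6.47) and Col18a1 (-3.50). Caveola and cytoskeleton genes were higher in fat for 23 of 25, with a median of 3.39. Cav1, which forms the caveolae that cover the fat cell surface, gave 5949.9, 5498 and 5093 in fat and 101, 85.3 and 143 in liver (log2 difference 5.68 ± 0.16, adjusted p = 9.44e-11) and vimentin gave 5600.2, 5268 and 5218 in fat and 189.7, 205 and 127 in liver for Vim (log2 difference 4.98 ± 0.19, adjusted p = 6.16e-10). The keratins of the hepatocyte, Krt8 and Krt18, made up the 2 exceptions, and Krt18 gave 2139, 2039 and 2291 in liver and 96.7, 37.6 and 25.8 in fat (log2 difference -5.57 ± 0.60, adjusted p = 4.20e-06). Without probe sets that can read several transcripts 16 members were tested, of which 13 were higher in fat, 1 in liver and 2 not called, with a median of 2.21.

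Macrophage genes differed by tissue. Of 22 macrophage genes 19 were higher in fat, 1 in liver and 2 were not called, with a median of 1.93. Gpnmb, of lipid-laden macrophages, gave 215, 859.5 and 583 in fat and 8.02, 12.2 and 3.05 in liver, at least 29.6-fold higher in fat (adjusted p = 4e-06). The lipid receptor Trem2 gave 177, 285 and 112 in fat and 5.79, 15.5 and 23.8 in liver, at least 10.2-fold (adjusted p = 0.000847), and the lysosomal protein Cd68 gave 406, 1003 and 600.4 in fat and 59.6, 76.7 and 71.0 in liver (log2 difference 3.19 ± 0.30, adjusted p = 1.08e-06). Differences were smaller for Csf1r, which all macrophages need (0.63), and Adgre1, the antigen F4/80, was not called (0.87, adjusted p = 0.0723). Of 11 Kupffer cell genes 7 were higher in liver, 2 in fat and 2 were not called, with a median of -2.30. Clec4f, found on Kupffer cells in the mouse, gave 422, 518 and 484 in liver and 12.9, 8.27 and 11.01 in fat, at least 25.4-fold higher in liver (adjusted p = 2.06e-06). Cd5l gave 987, 1191 and 1046 in liver and 7.25, 51.8 and 10.2 in fat (log2 difference -6.10 ± 0.54, adjusted p = 7.53e-07) and the complement receptor Vsig4 gave 787, 892 and 919 in liver and 71.3, 88.9 and 97.9 in fat (log2 difference -3.34 ± 0.22, adjusted p = 4e-08). Folr2 and Cd163, which macrophages of fat also express, were the members higher in fat (1.64 and 1.23). The summed macrophage signal was 12085, 20420 and 16356 in fat and 4926, 5993 and 5434 in liver, and the summed Kupffer cell signal was 1643, 2387 and 2067 in fat and 6151, 6653 and 6520 in liver.

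**Figure D4:**
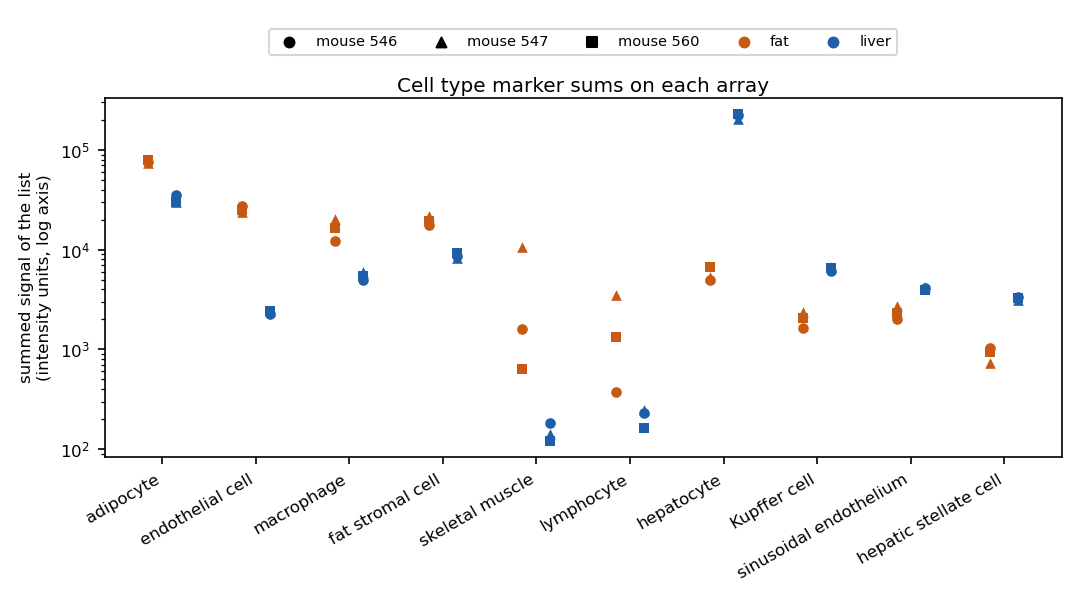
Summed signal of marker lists for cell types on each of the 6 arrays of WT mice on HFD, in intensity units on a log axis, with colour for the tissue and shape for the mouse. Endothelial, macrophage and stromal sums are higher on all 3 fat arrays, Kupffer, sinusoidal and stellate sums on all 3 liver arrays, and the skeletal muscle and lymphocyte sums of the fat of mouse 547 stand above those of the other fat arrays.

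Markers of tissues other than fat were uneven among the fat arrays. The summed signal of 15 skeletal muscle genes was 1609, 10580 and 638 in fat and 184, 143 and 120 in liver, and all 15 were highest in the fat of mouse 547. Mylpf, a myosin light chain of fast muscle, gave 77.8, 510.4 and 21.8 in fat and 20.6, 31.3 and 11.8 in liver (log2 difference 2.28 ± 0.65, adjusted p = 0.00791). Of the 15 genes 12 were called higher in fat with a median of 4.06, against 5 with a median of 2.76 without mouse 547, and 13 lay below the filter level in liver. The lymphocyte sum was likewise highest in that array, with 371, 3477 and 1323 in fat and 231, 245 and 163 in liver. Ighm, the heavy chain of IgM, gave 177, 3044 and 1145 in fat and 66.5, 104 and 65.3 in liver (log2 difference 3.47 ± 0.97, adjusted p = 0.00699), and 4 of 6 tested lymphocyte genes were not called. Markers of epididymis and testis lay below the filter level in fat for 12 of 15 members and in liver for 14 of 15, and their sum was 265, 316 and 188 in fat against 224, 238 and 177 in liver. Hepatocyte and plasma protein genes were highest in the fat of mouse 547 for 20 of 27 and 35 of 65 members. The part of these transcripts in other differences was not tested. Ucp1, the heat-producing carrier of brown fat, gave 17.1, 123 and 634 in fat and 1.40, 1.37 and 9.18 in liver, with the 3 fat arrays far apart.

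Genes at similar levels in both tissues were sought by a separate rule: a 95% confidence interval within 2-fold either way and a mean above the filter level in both. Of the genes tested 4140 (36.3%) met it, and 1575 with an interval within 1.5-fold. For the genes given below with a value after quantile normalization, the direction changed with the scaling. Of 34 ribosomal protein genes tested 32 were shared, 4 were called higher in fat and 15 in liver, with a median of -0.23, whereas quantile normalization called 26 higher in fat and 1 in liver, with a median of 0.40. Without probe sets that can read several transcripts 14 were tested, of which 3 were higher in fat and 3 in liver. Rps29 gave 7974, 8176 and 8616 in fat and 12267, 11273 and 11251 in liver (-0.49, and 0.30 after quantile normalization), and Rpl13a gave 5986, 5719.6 and 6345 in fat and 7600.0, 7434 and 8235 in liver (-0.37, and 0.46). The elongation factor Eef1a1 gave 6569.8, 6204 and 6896 in fat and 9109, 8963 and 9099 in liver (-0.47, and 0.37) and beta-2-microglobulin, the light chain of MHC class I, gave 6718, 6332 and 6779 in fat and 9531, 8782 and 9214 in liver (-0.47, and 0.38). All 4 differed little, were called higher in liver with the scaling of the authors and had the opposite sign after quantile normalization. The iron store Fth1 gave -0.44 and 0.40 after quantile normalization, and the aldehyde reductase Akr1a1 gave -0.47 and 0.36. Dbi, which binds acyl-CoA, gave 8599, 7671 and 8909 in fat and 7849, 7484 and 6877 in liver (log2 difference 0.18 ± 0.10, adjusted p = 0.143).

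Proteasome genes were shared for 27 of 34 members, with 3 higher in fat and 22 in liver and a median of -0.50. Psmb8, the interferon-inducible subunit, was among those higher in fat (0.54), and Psmb5, which it can replace, was higher in liver (-1.01). Respiratory chain genes were higher in liver for 28 of 32, with a median of -0.79 (-0.30 after quantile normalization, and 18 of 23 without probe sets that can read several transcripts), and 15 were shared. After quantile normalization 20 were higher in liver and 4 in fat, with a median of -0.30. Sdhb, of succinate dehydrogenase, had the largest difference, with 3220.4, 3221 and 3608 in liver and 1148, 1141 and 1695 in fat (log2 difference -1.36 ± 0.12, adjusted p = 6.04e-07). Of 15 genes commonly used as references 5 were higher in fat, 7 in liver and 3 were not called, with a median of 0.06, and 9 were shared. After quantile normalization 10 were higher in fat and 4 in liver. Pgk1 (log2 difference -1.56 ± 0.10, adjusted p = 4.22e-08) and Gusb (log2 difference 1.16 ± 0.25, adjusted p = 0.00115) differed the most, and Tbp gave 70.3, 68.7 and 76.5 in fat and 65.7, 62.9 and 79.2 in liver (log2 difference 0.06 ± 0.19, adjusted p = 0.797). Actb gave 0.31, and -0.03 when probe sets that can read several transcripts were left out. Of 16 clock genes 8 were higher in liver, 1 in fat and 7 were not called, with a median of -0.47, and 5 were higher in liver by the mean of their probe sets. The output factors Dbp and Hlf were higher in liver (-2.30 and -2.97), and Clock was higher in fat (1.49). Arntl, Per1, Per2 and Cry1 were not called (0.43, 0.43, -0.51 and 0.41). The sources used here do not give the time of day of collection.

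The same comparison in KO mice on HFD called 7678 genes (67.3%), with a median difference of 0.26. Of the WT calls 6306 were also called in the same direction in KO mice, 81.6% of the WT calls and 82.1% of the KO calls, and 89 (1.15%) were called in the opposite direction. Of the 2635 genes with a fitted difference of 4-fold or more in WT mice 2466 (93.6%) were called in the same direction in KO mice. On ND 7596 genes (66.6%) were called in WT and 7700 (67.5%) in KO mice, and 71.5% and 74% of the WT HFD calls were repeated in direction there, with 4.67% and 3.86% opposed. The size of the tissue difference itself differed between WT and KO mice on HFD for 1183 genes (10.4%), and between HFD and ND in WT mice for 3987 (34.9%). These tests share the WT HFD arrays.

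Several genes that were higher in fat of WT mice on HFD had a higher liver signal in KO than in WT mice on that diet. Cidea averaged 229 ± 222 (SD, n = 3) in fat and 5.11 ± 3.39 (SD, n = 3) in liver of WT mice, against 19.8 ± 2.15 and 1106 ± 281 in KO mice (difference between genotypes in the tissue difference, adjusted p = 0.00179). Scd1 averaged 6823 ± 370.4 in fat and 922 ± 372 in liver of WT mice, against 6459 ± 784 and 9602 ± 885 in KO mice (adjusted p = 0.00203). For both genes the KO mean in liver on HFD lay above that in fat, the reverse of WT mice. The KO difference was called for Cidea (-5.78) and not for Scd1 (-0.58, adjusted p = 0.168). On ND the liver mean of Scd1 was 4927 ± 3153 in WT and 10033 ± 2287 in KO mice. The WT liver mean of Scd1 was thus lower on HFD than on ND. The same held for Plin4 (41.1 ± 26.3 against 170.05 ± 54.5) and Cidec (38.8 ± 12.5 against 304 ± 185). Whether the genotype gap in liver reflects a rise in KO mice or a fall in WT mice on HFD was not tested. Fabp4 averaged 247 ± 32.5 in the liver of WT mice and 769 ± 137 in that of KO mice, with 9131 ± 639.8 and 8346 ± 968 in fat (adjusted p = 0.00435). Cd36 averaged 143 ± 36.9 in the liver of WT mice and 887 ± 62.7 in that of KO mice, with 6059 ± 250.03 and 5414 ± 759 in fat (adjusted p = 0.000154). Fabp4 and Cd36 remained higher in fat in both genotypes. In the liver of WT mice on ND they averaged 282 ± 69.4 and 151 ± 37.3, close to the WT means on HFD. Gpihbp1 differed through fat, with 3701 ± 149.6 in WT and 1214 ± 411 in KO fat and 397 ± 32.6 and 532 ± 81.4 in liver (adjusted p = 0.000813). In the fat of WT mice on ND it averaged 701 ± 239. Adipoq and Alb kept their tissue in every group of the series, with group means of Adipoq of 5279.9 ± 463 (SD, n = 3) or more in fat and 18.45 ± 8.46 or less in liver, and of Alb of 10262 ± 836 or more in liver and 1459 ± 980.0 or less in fat.

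**Figure D5:**
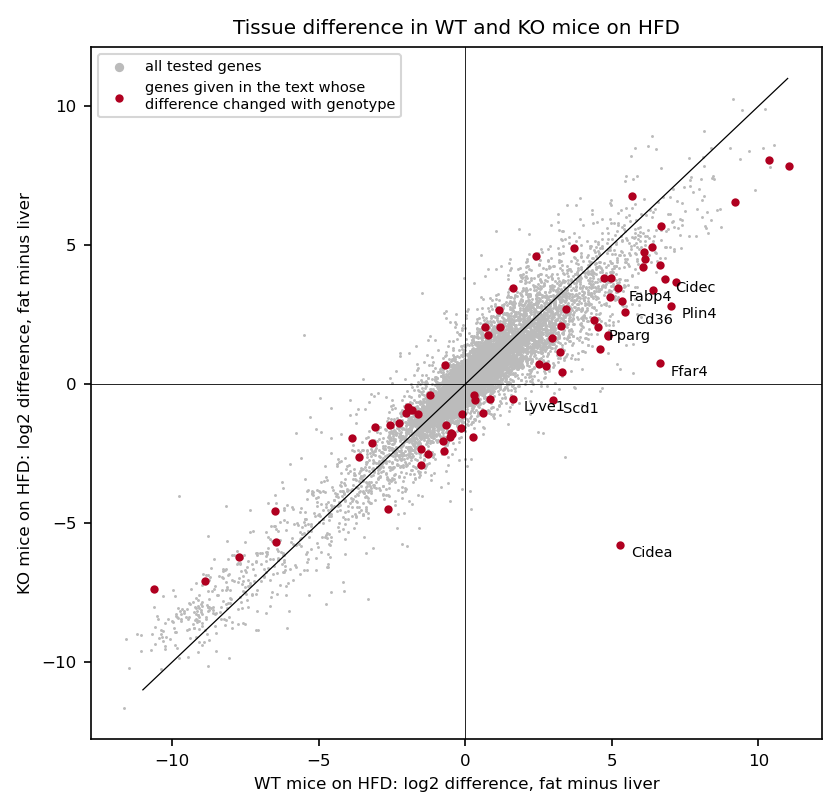
Log2 difference between fat and liver in WT mice on HFD (horizontal axis) and in KO mice on HFD (vertical axis) for all tested genes, with the line of equality. Dark points are the genes given in the text whose difference differed between the genotypes. Most genes lie near the line, and Cidea lies at 5.29 in WT and -5.78 in KO mice.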

How the data were processed

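RNA of epididymal fat and liver from 12 mice was read on 24 Affymetrix Mouse 430 2.0 arrays. The deposited values are linear MAS5 signal intensities, scaled by the authors per the submitters' processing notes, with the MAS5 version not given in the sources used here. Of 45101 probe sets 64 controls were left out, 34945 had 1 gene symbol, 932 several and 9160 none, and the brightest over the 6 arrays stood for each of 18193 genes. Signals under the 10th percentile (1.09) were raised to it before log2. Genes averaging 18.7, the median probe set's mean, or more over the 6 arrays were tested. All 24 arrays entered a fit by limma 3.58.1 in R 4.3.3 with mouse as a block and a variance trend (8 residual and 4.09 prior degrees of freedom), with Benjamini-Hochberg adjustment over 11412 genes. On simulated data with 200 of 11412 genes changed, the fit recovered most changes of 4-fold but missed many of 2-fold and most of 1.5-fold. False calls there were somewhat more frequent than the threshold allows. In the data 67.7% of genes were called, which makes the adjusted threshold less strict than in the simulation. The simulated rates therefore do not carry over to this comparison. Tissues were paired because both came from the same animal. Deviations of a mouse's 2 arrays correlated at 0.0163 to 0.0896. Replicates are separate mice.

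Members, lists and tests were chosen with earlier results of these data known. Genes were named by size of difference (12 each way above the filter level, 8 each way with a bound), as the 5 brightest or up to 3 opposed members of a list, as members of divided families or as the 12 brightest shared genes; 90 of the 272 genes given with values fell outside this rule and were chosen after their values were seen. Alternatives were quantile normalization, median centring, other floors, no filter, the mean of probe sets, probe sets ending in _at alone, fewer arrays, no block and leaving out each mouse. No deposited column was left out.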

Additional observations from a re-analysis of the deposited data

Results flagged for a closer look

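The tissue difference differed between WT and KO mice on HFD for 77 of the 272 genes given here with values. The test was the interaction term of the limma fit (adjusted p under 0.05), which 10.4% of all tested genes passed. The naming rule used the WT values on HFD, and 90 of the 272 genes were chosen after their values were seen. The WT difference is also part of the interaction tested. The share among the 272 genes therefore cannot be set against that of all tested genes. How often the difference was wider in WT mice is affected by the same choice. Values here are the WT difference minus the KO difference on the log2 scale, and those of genes with a tissue below the filter level depend on the floor. No explanation was tested.

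Among genes with the higher mean in fat, called or not, the difference was wider in WT mice for many genes of lipid storage and uptake: Plin4 4.20, Cidec 3.03, Acacb 2.86, Cd36 2.83, Pparg 2.49, Gpihbp1 2.07, Acaca 1.79, Fabp4 1.76 and Pnpla2 0.72. Ffar4, the gene knocked out, gave 5.89. Further metabolic and receptor genes were Abcd2 with 3.05, Gys1 with 3.36, Hcar2 with 3.14, Pdk4 with 2.33, Car4 with 2.66, Cyp4b1 with 1.29 and Slc25a4 with 0.94. Vascular genes were Pecam1 with 3.09, Rbp7 with 3.18, Rgcc with 2.29, Cdh13 with 2.10 and Cdh5 with 1.15. Others were Zfp423 with 3.51, Pmepa1 with 2.36, Igfbp3 with 2.11, Ifi27l2a with 1.84, Col3a1 with 1.82, Gnai1 with 1.65, Gsn with 1.46, Dpt with 1.32, Vim with 1.16 and S100a6 with 0.995. It was narrower in WT mice for the macrophage genes C3ar1 with -2.21, Folr2 with -1.81, C1qc with -1.38, Mrc1 with -0.97 and C1qa with -0.87, and for Gusb with -1.50, Scd2 with -1.20 and Cav1 with -1.09.

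Among genes with the higher mean in liver, called or not, the gap was wider in WT mice for F9 with -3.27, Cfi with -1.51, C1ra with -0.86, Serping1 with -0.53, Gys2 with -1.94, Egfr with -1.92, Cyp2d9 with -1.80, Fgf1 with -1.51, Fn1 with -1.15, Igf1 with -1.10, Cpt1a with -1.05, Stab2 with -1.01, Serpinf1 with -0.97, Ldha with -0.89, Nampt with -0.84 and Vtn with -0.78. It was narrower in WT mice for Agt with 1.87, Pck1 with 1.68, Bckdhb with 1.42, Cyp2e1 with 1.40, Per2 with 1.40, Ivd with 1.32, Bckdha with 1.31, Pdk1 with 1.29, Pygl with 1.26, Acadsb with 0.98, Insr with 0.84 and Elovl5 with 0.82.

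The sign of the difference itself was opposite in WT and KO mice for 9 genes. Cidea with 11.07, Ces1d with 2.15, Hibch with 1.63, Irs1 with 1.35, Mccc1 with 0.91 and Actb with 0.70 had the higher mean in fat in WT mice and were called higher in liver in KO mice. Scd1 with 3.56 and Lyve1 with 2.15 were not called in KO mice, and Lipa with -1.38 had the higher mean in liver in WT and was called higher in fat in KO mice.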

How the results depend on the processing

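Counts of genes higher in fat, higher in liver, fitted at 4-fold or more and shared, divided families and calls repeated in KO mice stayed within 1.5-fold of the main count under every alternative run, with 1 exception: an interval within 1.5-fold gave 1575 shared genes in place of 4140. Without the block for the mouse, in which both tissues of an animal are paired, 4745 genes were higher in fat and 3026 in liver. Leaving out 1 mouse gave 4148 to 4240 genes higher in fat, 2664 to 2770 in liver, 3526 to 3608 shared genes and 31 to 33 divided families. Of 341 genes named by the rule 258 kept their direction and call under each alternative that gave them a value; leaving out probe sets that can read several transcripts did so for 271. The sign reversed after quantile normalization for Akr1a1 (0.36), B2m (0.38), Cox4i1 (0.20), Cox6b1 (0.087), Ech1 (0.18), Eef1a1 (0.37), Fth1 (0.40), Itm2b (0.20), Psma3 (0.0072), Rpl13a (0.46), Rpl38 (0.31), Rplp0 (0.31), Rps14 (0.41), Rps28 (0.34), Rps29 (0.30) and Sod1 (0.17). It reversed with the mean of probe sets for Car3 (0.90), Klf3 (-0.13), Pdk1 (0.045) and Prm1 (3.89), and without probe sets that can read several transcripts for Actb (-0.026), Psma3 (0.0149) and Psma6 (-0.65). Apart from the scaling and the choice of probe set, the causes were not tested. A comparison of protein sequences within families was not run. A further probe set above the filter level ran opposite to the brightest for 1290 of 4862 tested genes that had one (26.5%). Signals near or below the filter level carry no size of difference beyond the bound.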

Other observations

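Marker lists of 3 further cell types gave few measured members. Mesothelial genes were higher in fat for 6 of 9 members, in liver for 2 and not called for 1. Upk3b, of the layer that covers fat pads, gave 126, 141 and 80.8 in fat and 9.43, 1.25 and 2.61 in liver, at least 6.204-fold higher in fat (adjusted p = 2.02e-05), and the members higher in liver were Krt8 and Krt18, which hepatocytes express. Of 3 cholangiocyte genes Krt19 was at least 2.07-fold higher in fat and Epcam and Sox9 were not called. Of 3 red cell genes Fech, the last enzyme of haem synthesis and active in hepatocytes too, was higher in liver (-1.22), and Slc4a1 was at least 2.76-fold higher in fat. Of 2 testis genes Prm2 was at least 3.69-fold higher in fat with 119, 60.5 and 27.1 in fat and 2.02, 7.06 and 6.01 in liver, and Prm1 was not called (-0.37, adjusted p = 0.803), while other probe sets of Prm1 gave 5.64 to 6.40.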
